A study of Mus musculus with 18 samples.

Results

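The response of wild-type cells to high laminar shear was read from 6 of the 18 RNA-seq libraries of the series, 3 of wild-type (WT) cells at 30 dyn/cm2 and 3 of WT cells kept static. These libraries were picked out by their labels for genotype and shear, not by a rule on measured values. Yet the comparison, and the gene lists counted below, were chosen with earlier results of these data known. The labels name the cells as endothelial cells from the aorta of mouse embryos. They were grown to confluence on gelatin-coated slides for flow, in a medium with 2% serum and with insulin, transferrin and selenium, and starved of serum for 24 h. The sheared cells then had laminar flow for 48 h, and for the static cells no time is stated. Both groups carry no mutation, and neither strain nor age beyond the embryonic stage is stated. Set beside this pair were 3 libraries of WT cells at 2 dyn/cm2 and 6 of cells homozygous for Tg737orpk (orpk), an insertion in the cilium gene Ift88, at 30 dyn/cm2 and static, 3 each. The labels name no separate animals, isolations or slides behind the 3 libraries of a group, so the spread among them could be technical only. The p-values cover this spread within groups alone, estimated jointly from all 18 libraries in 6 groups. In bulk RNA, fewer cells of a type and less of an RNA per cell cannot be told apart.

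The 6 libraries held between 13626480 and 16696835 gene counts, a ratio of 1.23 between the largest and the smallest. Levels below are CPM, read counts scaled to a common library size, after trimmed-mean normalisation, and a log2 fold change is that of 30 dyn/cm2 over static. Against the name in the labels, 10 of 18 defining endothelial markers had 0 reads at 30 dyn/cm2, Cdh5, Kdr, Tie1, Erg and Cldn5 among them, and 9 of the 18 had 0 reads in static cells. The 18 markers together reached 26.4 to 29.6 CPM at 30 dyn/cm2, against 54.7 to 55.5 CPM in static cells, most of it from Flt1, a receptor for vascular endothelial growth factor. Nephron markers, 6 genes led by the kidney cadherin Cdh16, summed to 780 to 819 CPM at 30 dyn/cm2, against 1222 to 1451 CPM in static cells. The 12 epithelial markers summed to 440 to 459 CPM at 30 dyn/cm2, against 510 to 523 CPM in static cells. Yet at the adjusted p of 0.05 used below, 6 of the 9 tested were higher and 2 lower. Krt19, 1 of the 2, averaged 16.2 CPM at 30 dyn/cm2, against 162 CPM in static cells. The 8 fibroblast markers summed to 1152 to 1160 CPM at 30 dyn/cm2, against 987 to 1053 CPM in static cells. Nearly all of it was Col1a1, with means of 1127 and 992 CPM, and of the 8 markers 2 were called higher and 1 lower. Leukocyte markers, 7 genes with Adgre1 and Tyrobp at 0 reads in both groups, summed to 12 to 13.1 CPM at 30 dyn/cm2, against 43.9 to 50.4 CPM in static cells, and Csf1r had the highest level among them. The cells are therefore called WT cells here. The part of these shifts in the results that follow was not tested.

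Flow over a cell sheet loads its surface with a drag force, and cells read it through junctions, integrins, ion channels, the glycocalyx and the primary cilium. In vascular endothelium, steady high shear is known for raising the transcription factors Klf2 and Klf4 and the nitric oxide synthase Nos3, and for lowering adhesion molecules such as Vcam1. Flow also moves medium, and with it gases, nutrients and secreted factors, past the cells.

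Most of the transcriptome differed between 30 dyn/cm2 and static, mostly by little. Of 13058 genes tested by edgeR's quasi-likelihood test, 8731 (66.9%) passed an adjusted p of 0.05, 4455 of them higher (34.1%) and 4276 lower (32.7%). Scaled by library totals, 5389 were higher and 3485 lower, and this scaling moves the median of all genes by 0.09 on the log2 scale. The median absolute log2 fold change was 0.32, a 1.25-fold difference. In 9288 genes (71.1%) the 3 sheared and the 3 static libraries did not overlap. A stricter test, for a change of more than 1.5-fold, called 1834 genes (14.0%), 686 higher (5.25%) and 1148 lower (8.79%). Because so many genes passed the usual test, counts of passing members of a gene group are to be read against these shares. The static libraries lay apart from all WT libraries under flow on a first principal component with 77.8% of the variance, and the second, with 14.1%, set 30 against 2 dyn/cm2.

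**Figure D1:**
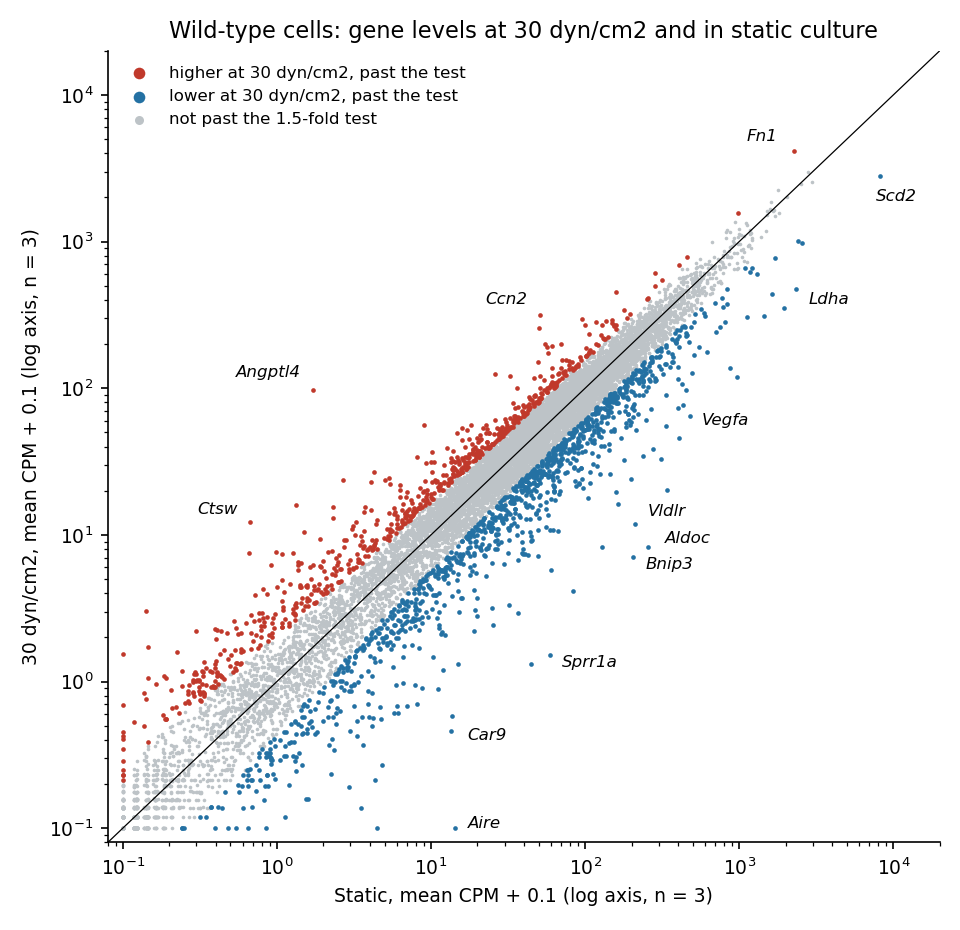
Each point is 1 of 13058 tested genes, placed by its mean over 3 WT libraries at 30 dyn/cm2 (y) and over 3 static ones (x), both in CPM plus 0.1 on log axes. Red and blue points passed the 1.5-fold test, 686 above and 1148 below the line of equal levels; Aldoc, Bnip3, Car9 and Aire lie far below it and Angptl4, Ctsw and Ccn2 far above.

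**Figure D2:**
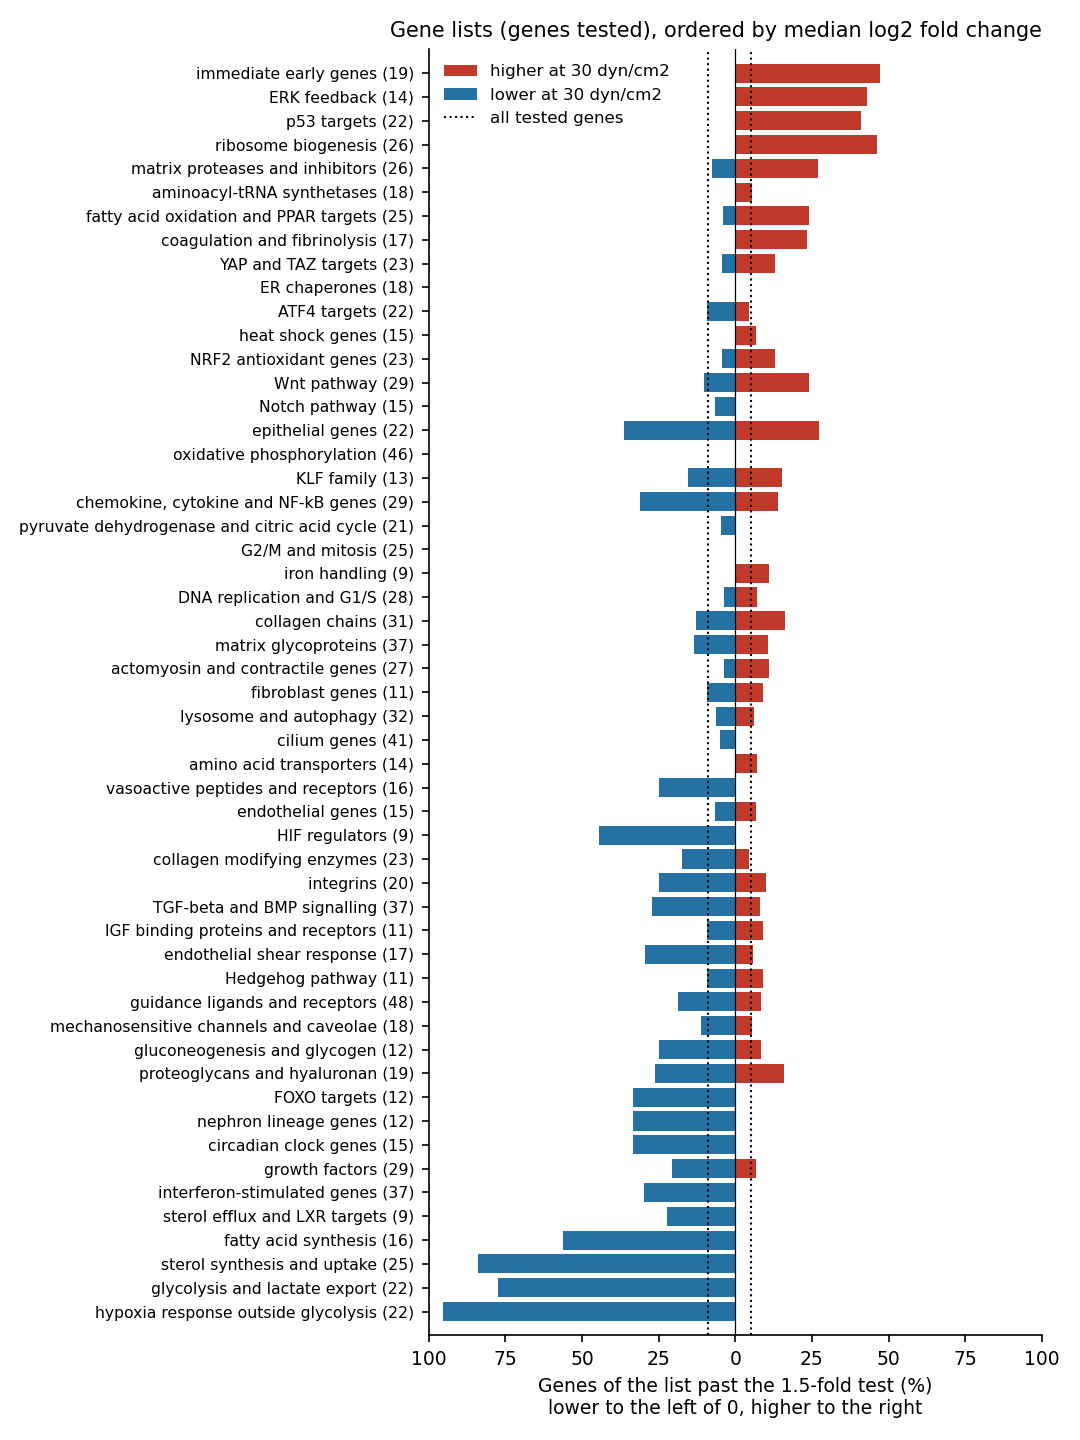
Bars give the share of tested members (number in brackets) that passed the 1.5-fold test, for gene groups with at least 9 tested. Higher at 30 dyn/cm2 is to the right and lower to the left, with groups in the order of their median log2 fold change. Smaller groups are left out, among them aryl hydrocarbon receptor targets (3 of 5 higher by this test) and mesothelial genes (3 of 4 lower). Dotted lines mark the shares over all tested genes, 5.25% and 8.79%. The longest bars shown are those of hypoxia, glycolysis and sterol genes, all to the left.

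Genes that cells raise when oxygen is short were far lower at 30 dyn/cm2 than in static cells, among them Car9, Bnip3, Pdk1 and Vegfa. The sensor behind this program is a set of prolyl hydroxylases, which in the presence of oxygen mark the alpha subunits of the hypoxia-inducible factors (HIF) for destruction through VHL. Stable HIF pairs with ARNT and binds the core ACGTG in the control regions of its targets. Of 22 tested members outside glycolysis, 21 were lower and 0 higher, all 21 by more than 1.5-fold, and the median log2 fold change was -2.56. Only Lox, a lysyl oxidase, did not pass (-0.71 ± 0.37 SE, edgeR adjusted p = 0.102). The members summed to 1325 to 1371 CPM at 30 dyn/cm2, against 5734 to 6114 CPM in static cells.

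Promoters are shown for the 3 called genes of the hypoxia and glycolysis groups that fell most among those whose window, 250 bases before to 50 after the start of the gene in RefSeq's annotation of GRCm38.p6, holds ACGTG. Capitals mark ACGTG or its reverse complement, CACGT, and the palindrome CACGTG holds both, which counts as 2 overlapping matches. The windows are chr4:43506776-43507075 on the plus strand, chr11:78322823-78323122 on the plus strand and chr7:138909457-138909756 on the minus strand, each written in the direction of its gene.
Car9: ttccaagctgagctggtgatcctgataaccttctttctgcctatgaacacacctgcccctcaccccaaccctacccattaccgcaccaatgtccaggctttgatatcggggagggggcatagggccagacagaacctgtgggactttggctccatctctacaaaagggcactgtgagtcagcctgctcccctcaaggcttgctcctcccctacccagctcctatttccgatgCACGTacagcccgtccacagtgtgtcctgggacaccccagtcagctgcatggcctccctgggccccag
Aldoc: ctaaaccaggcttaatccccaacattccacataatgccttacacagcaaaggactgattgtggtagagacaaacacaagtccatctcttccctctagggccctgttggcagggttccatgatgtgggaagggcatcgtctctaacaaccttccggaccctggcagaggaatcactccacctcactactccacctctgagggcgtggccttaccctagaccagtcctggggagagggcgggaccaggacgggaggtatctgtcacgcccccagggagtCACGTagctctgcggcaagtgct
Bnip3: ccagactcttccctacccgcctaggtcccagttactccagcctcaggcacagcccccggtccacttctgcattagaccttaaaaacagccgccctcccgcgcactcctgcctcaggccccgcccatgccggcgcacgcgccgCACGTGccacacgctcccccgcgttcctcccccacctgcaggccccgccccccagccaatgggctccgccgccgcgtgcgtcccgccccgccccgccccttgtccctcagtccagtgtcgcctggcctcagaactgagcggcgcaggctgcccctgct
The Car9 match lies close to the start of the gene, and so does that of Aldoc, while the palindrome of Bnip3 lies in the middle of its window. On either strand ACGTG was present in 13 of the 23 windows of hypoxia members (56.5%, 17 genes matched), in 17 of the 33 of glycolysis members (51.5%, 21 genes matched) and in 19.6% of all 32851 windows. A match of 5 letters is a description of the sequence and shows no binding.

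Car9 encodes a carbonic anhydrase on the cell surface that handles acid. Car9 (ENSMUSG00000028463, GRCm38 chromosome 4, 43506966 to 43513729, plus strand) had 0.3, 0.61 and 0.165 CPM at 30 dyn/cm2, against 14.3, 12.9 and 12.9 CPM in static cells. Every sheared library held under 1 CPM and every static library over 12 CPM, a 36.4-fold difference (log2 fold change -5.19 ± 0.20 SE, edgeR adjusted p = 7.83e-25). Bnip3 encodes a receptor that marks mitochondria for autophagy. Bnip3 (ENSMUSG00000078566, GRCm38 chromosome 7, 138890836 to 138909519, minus strand) had 7.25, 7.05 and 6.62 CPM at 30 dyn/cm2, against 217, 204 and 195 CPM in static cells. It fell 29.4-fold (-4.88 ± 0.07 SE, edgeR adjusted p = 1.02e-37), with no overlap, and its relative Bnip3l fell 4.07-fold, with 60.5 ± 2.19 CPM at 30 dyn/cm2 and 246 ± 13.6 CPM in static cells (SD, n = 3 each). Pdk1 is a mitochondrial kinase that shuts pyruvate dehydrogenase, the gate from glycolysis to the citric acid cycle. Pdk1 (ENSMUSG00000006494, GRCm38 chromosome 2, 71873224 to 71903858, plus strand) had 20.9, 21.2 and 18.7 CPM at 30 dyn/cm2, against 342, 347 and 326 CPM in static cells. That is 16.7-fold lower, again with all static libraries above all sheared ones (edgeR adjusted p = 2.72e-41). Vegfa, the main growth factor of blood vessels, had 64.0, 63.9 and 65.1 CPM at 30 dyn/cm2, against 481, 459.7 and 486 CPM in static cells. Its static libraries were 7.40-fold above the sheared ones (log2 fold change -2.89 ± 0.04 SE, edgeR adjusted p = 2.72e-41).

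The rest of the group fell with them. The prolyl hydroxylases that act on HIF and are themselves raised by it were lower, Egln1 by 5.44-fold and Egln3 by 2.597-fold. Enzymes that modify collagen were lower as well, P4ha2 6.89-fold with 35.8, 34.7 and 32.3 CPM at 30 dyn/cm2, against 244, 222 and 242 CPM in static cells, and P4ha1 3.51-fold and Plod2 1.77-fold. Ero1l, which oxidises folding proteins, fell 7.11-fold, Ndrg1 6.39-fold, the growth inhibitor Ddit4 3.86-fold, and the histone demethylase Kdm3a 2.65-fold. Mitochondrial members were lower too, Fam162a 6.01-fold and Higd1a 5.79-fold. Ankrd37 fell 7.96-fold, the Myc antagonist Mxi1 2.72-fold and the carbonic anhydrase Car12 2.05-fold. Secreted vascular peptides belong here as well: Apln, the ligand of the apelin receptor, had 20.4, 19.0 and 18.9 CPM at 30 dyn/cm2, against 174, 145 and 156 CPM in static cells, 8.16-fold lower. Adm, the vasodilator adrenomedullin, had 2 reads over the sheared libraries and 28 over the static ones, a ratio of 15.7 (95% exact counting interval 3.97 to 136).

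The regulators of HIF themselves moved less, 5 of 9 lower and 2 higher, with a median of -0.14. Hif1a, the oxygen-regulated subunit, had 207, 216 and 200.4 CPM at 30 dyn/cm2, against 424, 350.1 and 388 CPM in static cells. It was 1.86-fold lower, with no overlap (edgeR adjusted p = 8.53e-16). Vhl fell 1.75-fold and Cited2, which competes with HIF for a coactivator and is also a HIF target, 2.30-fold. Arnt differed little (-0.14 ± 0.04), and Epas1, which encodes the HIF2 alpha subunit, did not pass (-0.06 ± 0.12, edgeR adjusted p = 0.71). Egln2 and the asparaginyl hydroxylase Hif1an were each higher by 0.14 on the log2 scale.

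Glycolysis was lower at almost every step, from glucose entry to lactate export. Of 22 tested genes 21 fell and 0 rose, 17 by more than 1.5-fold, with a median log2 fold change of -1.99. The members summed to 3418 to 3448 CPM at 30 dyn/cm2, against 12730.4 to 13765 CPM in static cells. Glucose enters through Slc2a1 (GLUT1), which had 47.8, 45.8 and 43.1 CPM at 30 dyn/cm2, against 434, 394 and 392.1 CPM in static cells. That is 8.93-fold lower (-3.16 ± 0.05 SE, edgeR adjusted p = 6.79e-40), and the libraries do not overlap. Slc2a3, another carrier, was 2.59-fold lower at under 1 CPM in both groups. Hexokinases, which trap glucose as its phosphate, fell 3.46-fold (Hk2) and 2.28-fold (Hk1), and the isomerase Gpi1 fell 2.83-fold.

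Among the phosphofructokinase genes, which set the pace of the pathway, the fall was unequal. Pfkl had 119 ± 2.85 CPM at 30 dyn/cm2 and 965 ± 49.0 CPM in static cells (SD, n = 3 each), 8.14-fold lower, and Pfkp was 5.63-fold lower, whereas Pfkm was 1.36-fold lower. The kinases that make their activator stood apart, with Pfkfb3 1.29-fold lower and Pfkfb4 not past the test (0.01 ± 0.09, edgeR adjusted p = 0.923). The next step is the split of the sugar by aldolase. Aldoc (ENSMUSG00000017390, GRCm38 chromosome 11, 78322968 to 78327781, plus strand) had 7.91, 8.88 and 7.83 CPM at 30 dyn/cm2, against 264, 258 and 244 CPM in static cells. It fell 31.0-fold (-4.96 ± 0.06 SE, edgeR adjusted p = 3.66e-42), and Aldoa, the muscle-type aldolase, had 358, 352 and 343 CPM at 30 dyn/cm2, against 2070.5, 1939 and 1878 CPM in static cells, 5.59-fold lower. Neither pair of groups overlaps.

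Further down, Tpi1 fell 4.66-fold, Eno1 2.98-fold and the neuronal-type enolase Eno2 8.32-fold, with no overlap between the groups for any of them. Pkm, the pyruvate kinase, had 968, 994 and 980.1 CPM at 30 dyn/cm2, against 2683, 2466 and 2538 CPM in static cells, a 2.61-fold difference. Ldha, which turns pyruvate into lactate, had 484, 467 and 463 CPM at 30 dyn/cm2, against 2477, 2247 and 2261 CPM in static cells. It was 4.94-fold lower (-2.30 ± 0.04 SE, edgeR adjusted p = 4.07e-30) and, by difference of means, lost the most CPM under the naming rule after Scd2. Lactate leaves through Slc16a3, with 1.32, 1.05 and 1.27 CPM at 30 dyn/cm2, against 16.9, 13.3 and 14.1 CPM in static cells, 12.1-fold lower, and its chaperone Bsg had 446, 439 and 440.5 CPM at 30 dyn/cm2, against 1724, 1624 and 1567 CPM in static cells. The other exporter, Slc16a1, was only 1.15-fold lower. Gapdh, Pgk1 and Pgam1, with log2 fold changes of -2.19, -2.45 and -1.48, have many near-identical copies in the genome, so their levels are uncertain. Pgm1, which links glycogen to glycolysis, fell 20.4-fold, to 3.96, 4.49 and 3.75 CPM at 30 dyn/cm2, against 94.5, 76.8 and 78.0 CPM in static cells. Pgm1 and Aldoa overlap another gene on the other strand, and how strand was used in counting is not given in the sources used here.

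**Figure D3:**
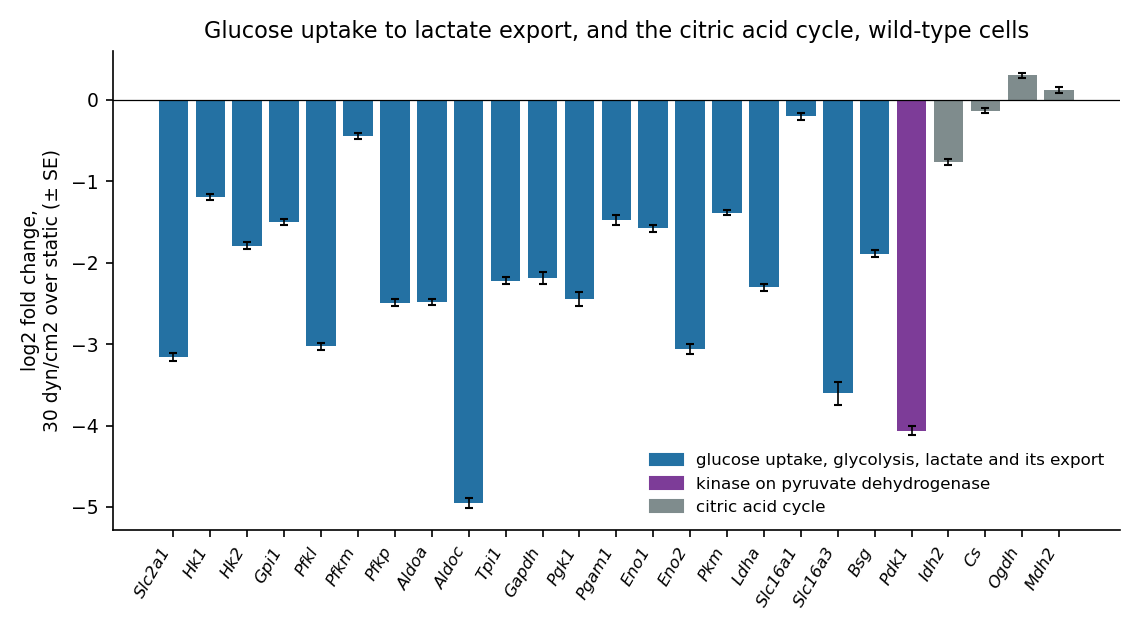
Bars give the log2 fold change, 30 dyn/cm2 over static in WT cells, with SE, for genes from glucose uptake to lactate export (blue, in pathway order), for Pdk1 (purple) and for citric acid cycle genes (grey). Every blue bar points down, Aldoc deepest at -4.96, while the grey bars of Ogdh (0.30) and Mdh2 (0.12) point up.

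Genes that use pyruvate in mitochondria changed by small amounts. Of 21 genes of pyruvate dehydrogenase and the citric acid cycle, 7 rose and 2 fell, the median being 0.04, and 1 passed the 1.5-fold test. That was Idh2, a mitochondrial isocitrate dehydrogenase, with 266, 253 and 263 CPM at 30 dyn/cm2, against 463, 434 and 433 CPM in static cells. Idh3a, of the other isocitrate dehydrogenase, rose 1.38-fold. Oxidative phosphorylation had 18 higher and 9 lower of 46, 0 by more than 1.5-fold in either direction, median 0.09, led by the cytochrome oxidase partner Ndufa4 (0.55 ± 0.05) and by Ndufa6 (-0.54 ± 0.05). Genes of glucose storage were lower in part: glycogen synthase Gys1 fell 3.72-fold, with 90.8, 90.1 and 90.5 CPM at 30 dyn/cm2, against 339, 338 and 334 CPM in static cells, and Ppp1r3b, which brings a phosphatase to glycogen, 5.38-fold. Fbp2, a fructose bisphosphatase that runs against glycolysis, had 10.2, 8.16 and 9.37 CPM at 30 dyn/cm2, against 2.55, 1.47 and 1.44 CPM in static cells. It rose 5.09-fold (edgeR adjusted p = 1.08e-16), the one member of 12 in the glucose and glycogen group to rise, while 7 fell.

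Genes of lipid synthesis were lower, and some of fat oxidation were higher. Cells make cholesterol and fatty acids under the SREBP transcription factors, which a shortage of sterols activates. Of 25 genes of sterol synthesis and uptake, 22 fell and 1 rose, 21 by more than 1.5-fold downwards, with a median of -0.94. Lss, which closes the sterol ring, had 106, 109 and 107 CPM at 30 dyn/cm2, against 420.1, 436 and 429 CPM in static cells. It was 3.998-fold lower (log2 fold change -1.999 ± 0.04 SE, edgeR adjusted p = 2.85e-36), the sheared libraries within 3 CPM of each other. Hmgcs1, at the entry to the pathway, had 236, 251 and 241 CPM at 30 dyn/cm2, against 719, 717 and 699.7 CPM in static cells, 2.93-fold lower with no overlap. Mvd fell 2.57-fold and the SREBP brake Insig1 2.58-fold. Hsd17b7, a later enzyme of the pathway, was the one member that rose, 1.37-fold, with 128, 127 and 119.6 CPM at 30 dyn/cm2, against 90.5, 89.8 and 92.2 CPM in static cells.

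In fatty acid synthesis 14 of 16 genes fell and 0 rose, median -0.79. Scd2, a desaturase that makes monounsaturated fatty acids, had 2790.3, 2759 and 2804 CPM at 30 dyn/cm2, against 8259, 7924 and 8263 CPM in static cells. No named gene lost more CPM, and its fall was 2.93-fold (-1.55 ± 0.03 SE). Fasn, the fatty acid synthase, had 1020.2, 1004 and 1000.1 CPM at 30 dyn/cm2, against 2378, 2292 and 2504 CPM in static cells, 2.37-fold lower. Acacb, which makes the inhibitor of fat entry into mitochondria, fell 5.48-fold, the acetate-using Acss2 4.87-fold and Scd1 3.67-fold. Of 9 genes of sterol efflux and LXR targets 7 fell and 1 rose, 2 and 0 by more than 1.5-fold, with the exporter Abcg1 2.74-fold lower and Mylip, a ubiquitin ligase, 1.76-fold lower. The one that rose was Nr1h3, which encodes the sterol sensor LXR alpha, at under 1 CPM in both groups (1.499 ± 0.57, edgeR adjusted p = 0.0194). Its call was lost without library 3 at 30 dyn/cm2 or without static library 1 or 2 (edgeR adjusted p = 0.0809 to 0.167). Vldlr, a receptor for fat-rich lipoproteins, had 11.6, 11.8 and 11.7 CPM at 30 dyn/cm2, against 225, 211 and 199 CPM in static cells. It fell 18.01-fold, with static libraries far above the rest (edgeR adjusted p = 1.34e-39).

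Rises were found among genes of fat handling under the PPAR receptors, though not in all of them. Angptl4, which blocks lipoprotein lipase, rose more than any other gene under the naming rule. Angptl4 (ENSMUSG00000002289, GRCm38 chromosome 17, 33773750 to 33781830, minus strand) had 94.3, 104 and 95.7 CPM at 30 dyn/cm2, against 1.37, 1.75 and 1.72 CPM in static cells. Static libraries held at most 2 CPM and sheared ones at least 94, a 60.3-fold difference (5.91 ± 0.10 SE, edgeR adjusted p = 1.85e-37). Cpt1a, which commits fatty acids to mitochondria, had 191, 197 and 196 CPM at 30 dyn/cm2, against 62.1, 62.3 and 59.3 CPM in static cells, 3.18-fold higher. Its partner Slc25a20, the carnitine carrier, rose 2.49-fold, the dehydrogenase Acadl 2.21-fold and the droplet coat Plin2 2.89-fold. In all 12 of 25 rose and 5 fell, 6 and 1 by more than 1.5-fold, with a median of 0.38. Pdk4, also a PPAR target, did not pass (mean of 0.0568 CPM at 30 dyn/cm2, against 0 CPM in static cells). Selenbp1, a methanethiol oxidase, fell 15.8-fold, with 9.05, 7.99 and 7.28 CPM at 30 dyn/cm2, against 137, 127 and 121 CPM in static cells.

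Genes that growth factors raise through ERK were mostly higher. Immediate early genes are transcribed within minutes of a stimulus without new protein, and here they were read 48 h into flow. Of 19 tested, 15 rose and 2 fell, 9 and 0 by more than 1.5-fold, with a median of 0.71. Egr1 had 194, 189 and 185 CPM at 30 dyn/cm2, against 93.3, 105 and 107 CPM in static cells, 1.86-fold higher with no overlap, and Fosb had 4.85, 3.66 and 4.91 CPM at 30 dyn/cm2, against 1.31, 1.33 and 1.78 CPM in static cells, 2.99-fold higher. Nr4a3 rose 3.43-fold, Egr2 2.97-fold, Egr3 2.46-fold and Myc 1.70-fold. Against them Fosl2 fell 1.5-fold. ERK also raises its own targets and brakes, and 9 of 14 of these rose and 2 fell, 6 and 0 by more than 1.5-fold. Etv5, an ETS transcription factor downstream of ERK, had 10.4, 8.82 and 11.9 CPM at 30 dyn/cm2, against 1.31, 1.399 and 1.49 CPM in static cells. It rose 7.35-fold (2.88 ± 0.16 SE, edgeR adjusted p = 1.94e-19), and the groups did not overlap. Etv4, its relative, had 40.4, 38.6 and 38.1 CPM at 30 dyn/cm2, against 11.7, 13.4 and 13.0 CPM in static cells, 3.07-fold higher, and the inhibitor Spry4 rose 4.01-fold and the phosphatase Dusp5 2.48-fold. Dusp1 fell 1.51-fold and Dusp6, another ERK phosphatase, did not pass (-0.04 ± 0.09, edgeR adjusted p = 0.756).

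Genes that build ribosomes rose together, by small steps. Of 26 genes 24 rose and 1 fell, 12 by more than 1.5-fold, with a median of 0.62. Noc3l, of the pre-60S particle, had 77.9, 76.0 and 74.9 CPM at 30 dyn/cm2, against 36.0, 42.3 and 40.5 CPM in static cells, 1.93-fold higher, Tsr1 and Rrs1 rose 1.93-fold and 1.92-fold, and Ncl, the abundant nucleolin, had 1188, 1205 and 1194 CPM at 30 dyn/cm2, against 819, 864 and 831 CPM in static cells, 1.43-fold higher. Polr1c, of RNA polymerase I and III, fell 1.11-fold, a call lost with library totals as the scaling (-0.06, edgeR adjusted p = 0.261). The enzymes that load tRNAs followed, 15 of 18 higher and 2 lower, Tars most, 1.70-fold. Replication genes were split, 10 higher and 10 lower of 28 (35.7% each), median 0.01, as were those of mitosis, 9 and 9 of 25 (36.0% each). These shares are near the 34.1% higher and 32.7% lower of all genes. By more than 1.5-fold 2 replication genes were higher and 1 lower, and 0 mitosis genes in either direction. Within these lists Mcm10, an initiation factor, rose 1.66-fold and Rrm2, which makes deoxynucleotides, 1.61-fold, while E2f1 fell 1.98-fold and the proliferation antigen Mki67 1.51-fold.

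Targets of p53, the guard against DNA damage, were higher in 17 of 22 and lower in 1, 9 by more than 1.5-fold, median 0.62. Ccng1, a cyclin under p53, had 205, 203 and 197 CPM at 30 dyn/cm2, against 52.2, 58.1 and 53.4 CPM in static cells. All sheared libraries were above all static ones, 3.70-fold (log2 fold change 1.89 ± 0.04 SE, edgeR adjusted p = 1.71e-32). Eda2r, a receptor for ectodysplasin A2, had 16.5, 15.6 and 13.8 CPM at 30 dyn/cm2, against 1.89, 2.59 and 2.13 CPM in static cells, 6.96-fold higher. Plk3, a stress kinase, rose 2.67-fold and the nuclease Aen 2.33-fold. Cdkn1a, the cell cycle brake p21, and the killers Bax and Bbc3 did not pass, with log2 fold changes of 0.08 ± 0.04, 0.07 ± 0.05 and 0.09 ± 0.10 (edgeR adjusted p = 0.121, 0.17 and 0.41), and Sesn1 fell 1.54-fold.

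**Figure D4:**
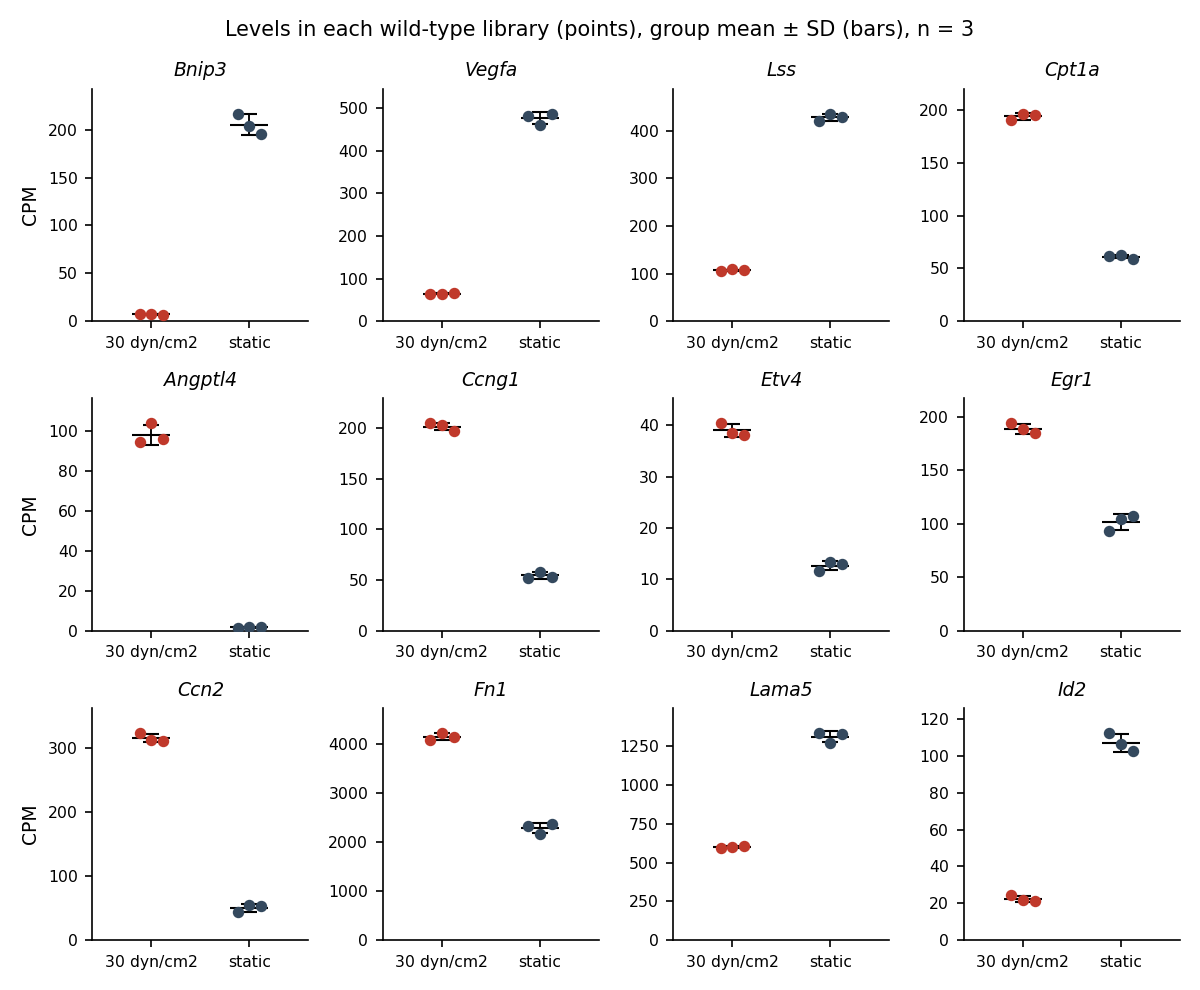
Each panel gives the CPM of 1 gene in the 3 WT libraries at 30 dyn/cm2 (left) and the 3 static WT libraries (right) as points, with the mean ± SD as bars, on axes that start at 0. In each of the 12 panels the groups stand apart, Bnip3, Vegfa, Lss, Lama5 and Id2 lower and the other genes higher at 30 dyn/cm2.

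Matrix and adhesion genes rose and fell member by member. Fn1, fibronectin, gained the most CPM of any named gene, with 4082, 4216 and 4126 CPM at 30 dyn/cm2, against 2325, 2157 and 2361 CPM in static cells. It rose 1.82-fold (0.86 ± 0.09 SE, edgeR adjusted p = 1.74e-06), and no static library reached a sheared one. Its receptor subunit Itgb1 had 1530.3, 1584 and 1546 CPM at 30 dyn/cm2, against 984, 995 and 967 CPM in static cells, 1.58-fold higher, and Itgb3, the partner of alpha v, had 4.37, 4.33 and 3.86 CPM at 30 dyn/cm2, against 0.457, 0.98 and 0.69 CPM in static cells, 5.90-fold higher. Other integrins were lower: Itgb6, typical of epithelium, fell 4.61-fold, Itga2 2.75-fold and the laminin-binding Itga7 2.28-fold, and over 20 integrins 4 rose and 9 fell, 2 and 5 by more than 1.5-fold.

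Among genes of basement membrane components, a grouping made after their values were seen, Lama5, a laminin chain, had 597, 602 and 607 CPM at 30 dyn/cm2, against 1337, 1275 and 1328 CPM in static cells, 2.18-fold lower, Lamb2 fell 2.58-fold and Hspg2, perlecan, had 771, 781 and 769 CPM at 30 dyn/cm2, against 1745, 1676 and 1724 CPM in static cells, 2.22-fold lower. Nid1, which ties laminin to collagen IV, fell 3.21-fold. Collagens had 10 higher (32.3%) and 8 lower (25.8%) of 31, median 0.00, beside 34.1% higher and 32.7% lower of all genes. By more than 1.5-fold 5 were higher and 4 lower. Col7a1, the anchoring fibril, rose 2.4-fold with 274, 291 and 288 CPM at 30 dyn/cm2, against 110.2, 110.1 and 134 CPM in static cells, while Col4a5 and Col4a6 fell 1.81-fold and 1.84-fold. Col15a1 had 16 reads over the sheared libraries and 0 over the static ones, at least 4.74-fold higher when the static group is set to 3 reads in all, the floor used here. Among matrix glycoproteins, 8 of 37 rose (21.6%) and 13 fell (35.1%), beside those same shares of all genes. By more than 1.5-fold 4 rose and 5 fell. Mfap4, of elastic microfibrils, had 7.67, 7.38 and 7.39 CPM at 30 dyn/cm2, against 0.653, 0.56 and 0.46 CPM in static cells, 13.3-fold higher, and Postn and Ltbp2 rose 3.05-fold and 3.97-fold. The small proteoglycan Dcn had 0.419, 0.666 and 0.717 CPM at 30 dyn/cm2, against 3.26, 4.27 and 3.85 CPM in static cells, 6.19-fold lower, and the hyaluronan receptor Cd44 rose 2.06-fold. Proteases and their inhibitors were 10 higher (38.5%) and 5 lower (19.2%) of 26, 7 and 2 by more than 1.5-fold, with Adamts10 4.57-fold higher, Mmp17 5.36-fold higher and the inhibitor Timp1 2.32-fold higher, against Adamts1, an enzyme that cuts versican, 2.88-fold lower with 264, 259 and 257 CPM at 30 dyn/cm2, against 768, 712 and 768 CPM in static cells, and Adamts5 3.17-fold lower.

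YAP and TAZ are coactivators that answer to cell tension, and Ccn2 and Ccn1, their best known targets, rose. Ccn2 had 324, 313 and 312 CPM at 30 dyn/cm2, against 43.5, 55.3 and 53.04 CPM in static cells, 6.24-fold higher (2.64 ± 0.09 SE, edgeR adjusted p = 1.76e-13), with no overlap. Ccn1 had 278, 268 and 266 CPM at 30 dyn/cm2, against 121, 131 and 137 CPM in static cells, 2.09-fold higher, and Ankrd1 rose 1.63-fold. In all 11 of 23 targets rose and 8 fell, beside 34.1% and 32.7% of all genes, and 3 rose by more than 1.5-fold, beside 5.25%. Rbms3 fell 3.38-fold. Contractile genes showed 8 higher and 10 lower of 27 (29.6% and 37.0%), near those same shares of 34.1% and 32.7%. By more than 1.5-fold 3 were higher and 1 lower. Tagln, an actin cross-linker, had 123, 120.1 and 109.6 CPM at 30 dyn/cm2, against 45.8, 48.5 and 45.1 CPM in static cells, 2.54-fold higher, and Tnnt2, cardiac troponin T, had 26.6, 28.9 and 24.5 CPM at 30 dyn/cm2, against 4.70, 3.01 and 4.83 CPM in static cells, 6.29-fold higher. Flna, the large actin linker filamin A, had 2238, 2247 and 2224 CPM at 30 dyn/cm2, against 1799, 1787 and 1793 CPM in static cells, 1.25-fold higher. Acta2, smooth muscle actin, did not pass (-0.06 ± 0.37, edgeR adjusted p = 0.923) at under 1 CPM in both groups. Smooth muscle and pericyte markers, 8 genes, summed to 119.7 to 134 CPM at 30 dyn/cm2, against 54.6 to 57.6 CPM in static cells, most of it Tagln itself.

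In the TGF-beta family, 19 of 37 genes fell and 9 rose, 10 and 3 by more than 1.5-fold. Genes of the BMP branch were among the falls. Id2 and Id3, nuclear inhibitors that BMP signals raise, had 24.3, 21.8 and 21.2 CPM at 30 dyn/cm2, against 112, 106 and 103 CPM in static cells (Id2) and log2 fold changes of -2.26 ± 0.08 (Id2) and -1.45 ± 0.11 (Id3). Smad6, the brake on BMP signals, fell 2.51-fold, Smad9 3.05-fold, and the ligands Bmp7 and Bmp4 4.40-fold and 2.03-fold. Among the rises, the BMP antagonist Nog rose 6.86-fold, at a low level (0.781 CPM at 30 dyn/cm2, against 0.107 CPM in static cells), the receptor Acvr1 2.58-fold and the ligand Tgfb1 1.83-fold. Pmepa1, a feedback inhibitor raised by TGF-beta, had 250.2, 259.9 and 261 CPM at 30 dyn/cm2, against 48.7, 48.8 and 52.99 CPM in static cells. It rose 5.12-fold (2.36 ± 0.06 SE, edgeR adjusted p = 1.38e-23), with no overlap. Of 17 coagulation genes 8 rose and 3 fell, 4 and 0 by more than 1.5-fold.

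Interferon-stimulated genes, an antiviral program, were lower. Of 37 tested 24 fell and 4 rose, 11 by more than 1.5-fold, with a median of -0.58. Ifit3 had 0.839, 0.61 and 0.937 CPM at 30 dyn/cm2, against 12.8, 9.87 and 10.5 CPM in static cells, 13.8-fold lower with no overlap (-3.79 ± 0.19 SE, edgeR adjusted p = 9.51e-21). Its near copy Ifit3b fell too (-3.17 ± 0.29), and reads of the pair cannot be told apart with certainty. Oas3 and Oas2, which sense double-stranded RNA, fell 4.89-fold and 4.46-fold.

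Inflammatory ligands parted. The neutrophil attractants Cxcl1, Cxcl2 and Cxcl5 fell, Cxcl2 with 0.659, 0.999 and 0.772 CPM at 30 dyn/cm2, against 8.81, 8.68 and 8.45 CPM in static cells, 10.5-fold, and Cxcl1 4.82-fold. Nfkbia, the feedback inhibitor of NF-kB, fell 2.16-fold and Tnfaip3 1.72-fold. Il11, a cytokine of tissue repair, rose 6.04-fold, with 4.07, 3.61 and 3.64 CPM at 30 dyn/cm2, against 0.588, 0.63 and 0.632 CPM in static cells, and the interleukin 1 antagonist Il1rn had 8.03, 6.55 and 7.94 CPM at 30 dyn/cm2, against 1.63, 2.66 and 1.84 CPM in static cells, 3.70-fold higher. Over the list 9 of 29 rose (31.0%) and 11 fell (37.9%), beside 34.1% and 32.7% of all genes. By more than 1.5-fold 4 rose and 9 fell. Vcam1, a ligand for leukocytes, had 1.02, 1.66 and 1.43 CPM at 30 dyn/cm2, against 10.8, 9.94 and 9.88 CPM in static cells, 7.36-fold lower. Csf1r, the receptor for macrophage colony-stimulating factor, had 10.1, 8.38 and 8.38 CPM at 30 dyn/cm2, against 46.5, 41.5 and 44.8 CPM in static cells, 4.96-fold lower, with its ligand Csf1 1.21-fold lower. Of 7 leukocyte markers, 2 had a mean of at least 1 CPM in either group, Csf1r itself and Cd68 (3.22 CPM at 30 dyn/cm2, against 2.65 CPM in static cells), and Adgre1 and Tyrobp were at 0 reads in both.

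Of the classic shear genes of endothelium, Klf4, Edn1 and Vcam1 fell and Ptgs2 rose. Of 17 tested 4 rose and 8 fell, with a median of -0.29. Klf2 had 7.73, 6.16 and 6.23 CPM at 30 dyn/cm2, against 6.98, 5.32 and 6.95 CPM in static cells, and did not pass (0.05 ± 0.15, edgeR adjusted p = 0.799). Its libraries overlap. Nos3 had 1.38, 1.89 and 2.04 CPM at 30 dyn/cm2, against 2.28, 2.66 and 2.41 CPM in static cells, and did not pass either (-0.46 ± 0.21, edgeR adjusted p = 0.0546), though its groups do not overlap. It was called lower with RLE factors, with only the 2 compared groups in the fit and without library 3 at 30 dyn/cm2 (edgeR adjusted p = 0.0461, 0.0364 and 0.0398). Klf4 had 19.1, 18.6 and 18.3 CPM at 30 dyn/cm2, against 49.1, 38.4 and 46.1 CPM in static cells, 2.39-fold lower, with no overlap. Edn1, the constrictor endothelin 1, had 5.09, 4.66 and 3.47 CPM at 30 dyn/cm2, against 8.42, 8.12 and 7.07 CPM in static cells, 1.78-fold lower, and Ptgs2, which makes prostaglandins, had 25.5, 28.4 and 26.9 CPM at 30 dyn/cm2, against 8.94, 9.45 and 11.6 CPM in static cells, 2.67-fold higher. Among the other Krüppel-like factors Klf10 and Klf11, both raised by TGF-beta, rose 1.62-fold and 1.79-fold, and Klf3 fell 2.01-fold. Of 15 tested endothelial genes 2 rose and 5 fell, 1 and 1 by more than 1.5-fold, beside 34.1% and 32.7% of all genes at the usual threshold. The list summed to 410.5 to 425 CPM at 30 dyn/cm2, against 346 to 369 CPM in static cells, most of it Mcam. Those that rose were Mcam, an adhesion molecule, with 275, 280.3 and 286 CPM at 30 dyn/cm2, against 149, 151 and 147 CPM in static cells, 1.88-fold higher, and Eng, a TGF-beta coreceptor, under 2 CPM in every library (0.58 ± 0.24). The call of Eng was lost with DESeq2 (adjusted p = 0.0644) and without library 2 or 3 at 30 dyn/cm2 or static library 1 (edgeR adjusted p = 0.0641 to 0.144). Among the falls, Flt1 had 15.8, 17.5 and 16.0 CPM at 30 dyn/cm2, against 41.2, 39.2 and 40.7 CPM in static cells, 2.46-fold lower, and Pecam1 had 0.479, 0.777 and 0.496 CPM at 30 dyn/cm2, against 0.914, 1.05 and 1.84 CPM in static cells, 2.19-fold lower, a call lost without static library 3 (-0.73, edgeR adjusted p = 0.0888). Thbd had too few reads to test.

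Genes of epithelial and urogenital lineages shifted as well. Krt19, a keratin of simple epithelia, had 16.7, 16.3 and 15.5 CPM at 30 dyn/cm2, against 173, 159.6 and 154 CPM in static cells. It fell 10.04-fold (-3.33 ± 0.07 SE, edgeR adjusted p = 5.01e-31), while its relatives Krt8 and Krt18 rose 1.32-fold and 1.25-fold. Over 22 epithelial genes 9 rose and 10 fell, 6 and 8 by more than 1.5-fold. Epcam rose 3.74-fold, the tight junction gene Cldn4 3.80-fold and the membrane protease St14 5.85-fold, with 13.5, 13.6 and 11.9 CPM at 30 dyn/cm2, against 1.96, 2.38 and 2.30 CPM in static cells. A pair of genes of the cornified envelope of skin, which lie near each other on chromosome 3, were among the 12 that fell most: Sprr1a had 1.798, 1.11 and 1.38 CPM at 30 dyn/cm2, against 71.7, 49.1 and 55.3 CPM in static cells, 41.2-fold lower, and Sprr2g had 1.44, 0.832 and 1.38 CPM at 30 dyn/cm2, against 48.1, 44.1 and 40.9 CPM in static cells, 36.3-fold lower. Sprr2 genes have near copies, so the level of Sprr2g is uncertain.

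Nephron lineage genes fell in 9 of 12 and rose in 0, median -0.53. Pax8, a kidney and thyroid transcription factor, had 155, 145 and 149 CPM at 30 dyn/cm2, against 393, 335 and 379 CPM in static cells, 2.47-fold lower with no overlap, Pax2 fell 3.31-fold and Aqp1, a water channel, 2.89-fold with 141, 136 and 138 CPM at 30 dyn/cm2, against 466, 319 and 413 CPM in static cells. Lrp2, the endocytic receptor megalin, fell 2.09-fold. Of 4 mesothelial genes 3 fell: Msln had 29.9, 27.9 and 27.1 CPM at 30 dyn/cm2, against 92.6, 102 and 89.2 CPM in static cells, 3.34-fold lower. Wt1 had 0 reads over the sheared libraries and 7 over the static ones, at least 2.62-fold lower. The largest bound of all was that of Aire, which in the thymus drives the display of tissue antigens. Aire (ENSMUSG00000000731, GRCm38 chromosome 10, 78030022 to 78043610, minus strand) had 0 reads over the sheared libraries and 666 over the static ones, at least 250-fold lower against the floor, with 13.1, 16.7 and 13.0 CPM in the static libraries. Aire overlaps another listed gene on the other strand. Espn, which bundles actin in microvilli, fell 28.2-fold, with 0.779, 0.388 and 0.276 CPM at 30 dyn/cm2, against 12.9, 12.6 and 15.1 CPM in static cells.

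Of 29 growth factors 11 fell and 7 rose, 6 and 2 by more than 1.5-fold, median -0.56, beside 32.7% lower and 34.1% higher among all genes. Beside Vegfa, Vegfb had 16.1, 16.5 and 17.2 CPM at 30 dyn/cm2, against 55.5, 54.7 and 56.4 CPM in static cells, 3.34-fold lower, and Vegfd had 18.9, 19.8 and 19.4 CPM at 30 dyn/cm2, against 67.7, 59.5 and 62.0 CPM in static cells, 3.26-fold lower. Fgf18 and Hbegf rose 2.06-fold and 1.64-fold. Igf1r, the receptor of insulin-like growth factor 1, fell 2.01-fold. Among vasoactive genes 5 of 16 fell (31.2%), beside 32.7% of all genes, and 1 rose (6.2%), beside 34.1%. By more than 1.5-fold 4 fell and 0 rose, beside 8.79% and 5.25% of all genes. Npr3, which clears natriuretic peptides, had 33.3, 33.1 and 32.6 CPM at 30 dyn/cm2, against 325, 323 and 287 CPM in static cells. The static libraries were 9.43-fold above the sheared ones (log2 fold change -3.24 ± 0.06 SE, edgeR adjusted p = 3.47e-31).

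Genes of stress programs changed mostly by less than 1.5-fold. NRF2 antioxidant genes were 14 higher and 5 lower of 23, 3 and 1 by more than 1.5-fold, with Nqo1 3.19-fold higher at 1.99 CPM, against 0.636 CPM in static cells, and Hmox1 1.67-fold higher. Chaperones of the endoplasmic reticulum rose in 16 of 18, 0 by more than 1.5-fold, Calr with 1347, 1352 and 1349 CPM at 30 dyn/cm2, against 931, 946 and 939 CPM in static cells. Heat shock genes rose in 9 of 15 and fell in 4, led by Hsph1 (1.92-fold higher). Targets of ATF4, the factor of amino acid shortage, rose in 12 of 22 (54.5%) and fell in 4 (18.2%), beside 34.1% and 32.7% of all genes. By more than 1.5-fold 1 rose and 2 fell. The largest change was the fall of Vldlr, given above, and Stc2 was lower too. The hormone Fgf21 was 2.12-fold higher and Chac1 1.57-fold higher. The aryl hydrocarbon receptor, a sensor of planar chemicals, had 3 of its 5 tested targets higher. Cyp1b1 had 127, 125 and 125 CPM at 30 dyn/cm2, against 23.6, 26.9 and 27.1 CPM in static cells, 4.85-fold higher with no overlap, Tiparp rose 1.63-fold, and Cyp1a1 had 17 reads over the sheared libraries and 0 over the static ones, at least 5.04-fold higher. Sgk1, a kinase raised by glucocorticoids and by salt, rose 3.09-fold.

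Clock genes fell in 11 of 15 and rose in 2, 5 by more than 1.5-fold, with a median of -0.56. Bhlhe41, a repressor of the clock, had 7.01, 7.43 and 7.17 CPM at 30 dyn/cm2, against 44.8, 40.0 and 41.9 CPM in static cells, 5.85-fold lower, and Ciart and Dbp, outputs of the clock, fell 4.40-fold and 2.83-fold. Per2 rose 1.55-fold. The time of day of lysis is not given in the sources used here. Targets of FOXO, which is active when insulin signals are low, fell in 8 of 12 and rose in 2, among the falls Ccng2 (2.41-fold), Cdkn1b (1.79-fold) and Foxo3 itself (1.95-fold). Txnip, a glucose-sensitive brake on glucose uptake, fell 1.64-fold and its relative Arrdc3 2.34-fold.

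Genes of the cilium, through which the series asks how flow is sensed, changed by small amounts. Of 41 tested 17 fell and 5 rose, 2 by more than 1.5-fold, median -0.10. Ift88, the gene that the orpk insertion hits, had 12.8, 13.3 and 13.9 CPM at 30 dyn/cm2, against 13.4, 17.4 and 16.0 CPM in static cells, with overlapping libraries and a log2 fold change of -0.22 ± 0.09 (edgeR adjusted p = 0.0213). Scaled by library totals it did not pass (-0.14, edgeR adjusted p = 0.168). Nor did it pass without library 1 or 2 at 30 dyn/cm2 or without static library 2 or 3 (edgeR adjusted p = 0.0517 to 0.175). Pkhd1, a ciliary protein of kidney tubules, fell 1.78-fold. Signals that pass through cilia were mixed: Gli1, the readout of Hedgehog signals, had 2.16, 2.27 and 1.71 CPM at 30 dyn/cm2, against 0.522, 0.42 and 0.517 CPM in static cells, 4.13-fold higher, while Gas1, a coreceptor, fell 2.96-fold and 6 of 11 Hedgehog genes were lower and 2 higher. In the Wnt pathway 11 of 29 rose (37.9%) and 5 fell (17.2%), beside 34.1% and 32.7% of all genes. By more than 1.5-fold 7 Wnt genes rose and 3 fell. Axin2, the feedback target of this pathway, had 16.5, 16.4 and 15.5 CPM at 30 dyn/cm2, against 7.25, 5.81 and 6.32 CPM in static cells, 2.498-fold higher with no overlap, the receptor Fzd9 rose 6.06-fold and Wnt4, which drives nephron formation, fell 3.55-fold. Notch genes were 4 higher and 5 lower of 15 (26.7% and 33.3%), beside 34.1% and 32.7% of all genes. By more than 1.5-fold 0 were higher and 1 lower, and the Notch ligand Jag1 was 1.95-fold lower. Of the mechanosensors, the channel Piezo2 rose 2.95-fold at a low level (0.837 CPM at 30 dyn/cm2, against 0.283 CPM in static cells), Piezo1 was 1.15-fold higher, and the caveola genes Cav1 and Cavin3 fell 1.82-fold and 1.87-fold.

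Guidance genes, which steer axons and vessels, fell in 19 of 48 and rose in 12, 9 and 4 by more than 1.5-fold. Ntn4, a basement membrane netrin, had 9.17, 8.88 and 8.66 CPM at 30 dyn/cm2, against 39.7, 39.3 and 37.0 CPM in static cells, 4.34-fold lower, Nrp2 fell 3.12-fold and Sema3e 2.75-fold, and the netrin receptor Unc5b rose 2.00-fold. Among lysosome genes, 11 of 32 rose (34.4%) and 14 fell (43.8%), beside 34.1% and 32.7% of all genes. By more than 1.5-fold 2 rose and 2 fell. Ctsw, a cathepsin best known from cytotoxic lymphocytes, had 12.2, 11.98 and 12.1 CPM at 30 dyn/cm2, against 0.261, 0.77 and 0.69 CPM in static cells. It rose 20.7-fold (4.38 ± 0.19 SE, edgeR adjusted p = 6.39e-23). Ctsw overlaps another gene on the other strand. Inka2, an inhibitor of the kinase Pak4, had 15.6, 15.8 and 16.4 CPM at 30 dyn/cm2, against 1.11, 1.26 and 1.32 CPM in static cells, 12.9-fold higher.

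What the size of the shear adds was asked by setting WT cells at 30 dyn/cm2 against WT cells at 2 dyn/cm2, a pair that shares the 30 dyn/cm2 libraries with the comparison above. Of the 13058 genes 2071 were higher at 30 dyn/cm2 (15.9%) and 2245 lower (17.2%), and 142 (1.09%) and 167 (1.28%) by more than 1.5-fold. Hypoxia and glycolysis genes differed little between the shears, with 3 higher and 6 lower of 22 hypoxia genes (median -0.04), and 3 and 8 of 22 glycolysis genes (median -0.07). Ldha held 452, 400.0 and 413 CPM at 2 dyn/cm2, beside the 484, 467 and 463 CPM at 30 dyn/cm2 given above. Library 1 at 2 dyn/cm2 stood apart from the others of its group. Without it 2117 were higher and 2222 lower.

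Larger differences between the shears came from other groups. Interferon-stimulated genes were lower at 30 than at 2 dyn/cm2 in 30 of 37 and higher in 0, median -1.02. Ifit3 held 0.839, 0.61 and 0.937 CPM at 30 dyn/cm2, against 11.9, 8.65 and 9.44 CPM at 2 dyn/cm2, a log2 fold change of -3.64 ± 0.19. Genes of ribosome biogenesis rose in 23 of 26 and fell in 0, immediate early genes in 10 of 19 with 0 lower, and contractile genes in 16 of 27 with 2 lower. Pmepa1 held 250.2, 259.9 and 261 CPM at 30 dyn/cm2, against 55.0, 53.3 and 56.9 CPM at 2 dyn/cm2. The level at 2 dyn/cm2 was near that of static cells, and no library at 30 dyn/cm2 came near it (edgeR adjusted p = 2.92e-22). Ctsw, Tnnt2 and the chloride channel Ano1 had log2 fold changes of 4.32 ± 0.18, 2.92 ± 0.11 and 2.45 ± 0.08 between 30 and 2 dyn/cm2.

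Other genes fell in steps with shear. Npr3 held 325, 323 and 287 CPM in static cells, 128, 135 and 142 CPM at 2 dyn/cm2 and 33.3, 33.1 and 32.6 CPM at 30 dyn/cm2, the groups in order and without overlap, and Apln held 174, 145 and 156, 64.3, 63.3 and 60.9 and 20.4, 19.0 and 18.9 CPM in the same order. Ccn2 went the other way, with 43.5, 55.3 and 53.04 CPM in static cells, 95.8, 96.4 and 97.9 CPM at 2 dyn/cm2 and 324, 313 and 312 CPM at 30 dyn/cm2. Fn1 did not follow the order of shear, with 2325, 2157 and 2361 CPM in static cells, 1470.1, 1947 and 1976 CPM at 2 dyn/cm2 and 4082, 4216 and 4126 CPM at 30 dyn/cm2. Cldn2, a pore-forming claudin, was highest at 2 dyn/cm2, with 8.62, 8.26 and 10.4 CPM in static cells, 27.4, 30.3 and 25.9 CPM at 2 dyn/cm2 and 8.27, 6.99 and 6.51 CPM at 30 dyn/cm2. Csf1r and Sult1c2, a sulfotransferase, had log2 fold changes of -2.20 ± 0.08 and -2.49 ± 0.15 for 30 over 2 dyn/cm2. The collagen IV chain Col4a3 was lower at 2 dyn/cm2 than in the other groups, with 7.64, 8.19 and 7.41 CPM in static cells, 1.85, 1.98 and 2.01 CPM at 2 dyn/cm2 and 8.99, 9.65 and 8.82 CPM at 30 dyn/cm2.

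**Figure D5:**
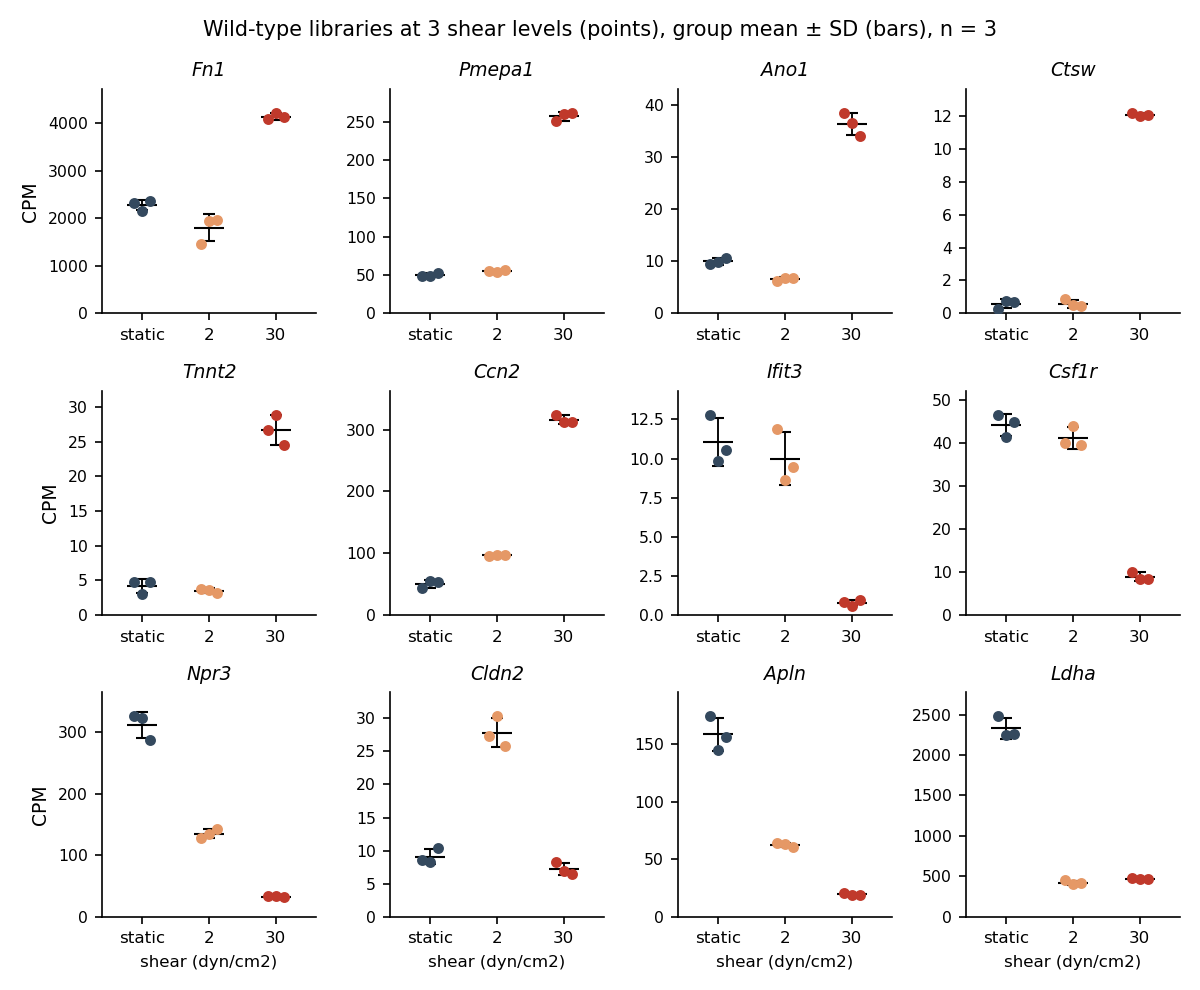
Panels give the CPM of 12 genes in the 3 WT libraries at each shear (static, 2 and 30 dyn/cm2, from left to right) as points, with the mean ± SD as bars. In Pmepa1, Ano1, Ctsw and Tnnt2 the libraries at 30 dyn/cm2 stand above those of both other groups, in Ifit3 and Csf1r below them, and Ldha is low at 2 and at 30 dyn/cm2.

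Whether WT cells answered high shear as orpk cells did was asked by the difference between the log2 fold changes of WT and orpk cells, each 30 dyn/cm2 over static. It was above 0 in 3512 of 13058 genes (26.9%) and below 0 in 3992 (30.6%) at an adjusted p of 0.05. The cultures differ in cell type markers too. Cdh16 averaged 472 and 666 CPM in WT cells at 30 dyn/cm2 and static, against 0.497 and 0.488 CPM in orpk cells, and Krt18 averaged 190 and 151 CPM, against 0.149 and 0.162 CPM in orpk cells. The fibroblast collagen Col1a2 averaged 17.9 and 18.3 CPM in WT cells, against 17575 and 19314 CPM in orpk cells. Differences in response therefore cannot be told apart from differences between these cultures in cell type, and none is tied to the Ift88 insertion here. In sterol synthesis all 25 of 25 genes had a lower change in WT than in orpk cells, where the median change was -0.94 in WT and 1.26 in orpk cells. Lss had a log2 fold change of -1.999 ± 0.04 in WT and 0.93 ± 0.04 in orpk cells, a difference of -2.93 ± 0.05 (edgeR adjusted p = 6.21e-36). In orpk cells Lss held 260.5, 268 and 263 CPM at 30 dyn/cm2, against 140.3, 142 and 133 CPM in static cells. All sheared orpk libraries lay above all static ones, the reverse of the order in WT cells. Fatty acid synthesis genes differed the same way in 15 of 16. The median change of hypoxia genes was -2.56 in WT and -2.38 in orpk cells, with 9 of 22 differences above 0 and 10 below. For Ldha the difference did not pass (-0.10 ± 0.06, edgeR adjusted p = 0.167), and Npr3 fell further in WT cells (difference -1.87 ± 0.15). Klf4 moved in opposite directions, -1.26 ± 0.07 in WT and 0.94 ± 0.05 in orpk cells (difference -2.20 ± 0.09, edgeR adjusted p = 8.45e-21). For interferon genes the median was -0.58 in WT and -1.88 in orpk cells, and 26 of 37 differences were above 0 and 3 below.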

How the data were processed

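Poly(A) RNA of 18 libraries was sequenced as single 50-nt stranded reads, per the labels. The submitters' processing notes name CASAVA 1.8.2, STAR 2.4, featureCounts 1.4.6 and GRCm38, and the values the authors deposited are the read count per gene, as whole numbers. How strand and reads with several matches were treated is not given in the sources used here, so genes with near copies (Gapdh, Pgk1, Pgam1, Npm1, Ftl1) have uncertain levels. Of the genes named, Acss2, Acvr1, Aire, Aldoa, Ankrd37, Csf1r, Ctsw, Dbp, Dusp1, Egln2, Eng, Fam162a, Gapdh, Gli1, Gys1, Itga7, Mfap4, Mxi1, Nos3, Pfkm, Pfkp, Pgm1, Piezo1, Plk3, Tagln, Timp1, Tpi1 and Tsr1 overlap another listed gene on the other strand. Gene names and locations are those of GENCODE M21 (21583 of 21647 genes, 3937 of them without reads). Library totals ran from 13626480 to 17387553 counts, and counting intervals and floors cover counting error only.

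With R 4.3.3 and edgeR 4.0.16, 13058 genes kept by filterByExpr had TMM factors and a quasi-likelihood fit, in its robust form, with 1 mean for each of 6 groups of the 18 libraries (coefficient of variation 3.28%, 12 residual degrees of freedom). The comparisons used the quasi-likelihood F test with Benjamini-Hochberg adjustment at 0.05 over all genes tested, and, by edgeR's threshold test, against a change of 1.5-fold. CPM are TMM-normalised, SD are over 3 libraries, and an SE is the absolute log2 fold change divided by the square root of F. A gene with 0 reads in a group was bounded by setting that group to 3 reads in all, and one at 1 to 3 reads has a ratio with a 95% exact interval. The model was tested on simulated data. The comparison and the 60 gene lists (1322 entries) were chosen with earlier results of these data known.

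Named by rule were 11 fixed genes, the 12 highest and 12 lowest log2 fold changes among called genes with 5 CPM or more on average, a regular symbol and libraries that do not overlap, and the 6 genes that lost and 6 that gained most CPM. Of each list, up to 4 called members with the largest change were added and up to 2 against its majority. So were 5 and 5 genes of 30 against 2 dyn/cm2 and 4 and 4 of the difference from orpk cells. The hypoxia and glycolysis lists are given whole. Chosen after their values were seen were Acadl, Aen, Ankrd1, Arnt, Bax, Bbc3, Bmp4, Cd68, Cdkn1a, Col4a5, Col4a6, Csf1, Cxcl1, Dusp5, Dusp6, Egr1, Epas1, Fgf18, Hbegf, Id3, Krt8, Krt18, Lama5, Lamb2, Mdh2, Myc, Nfkbia, Pdk4, Piezo1, Slc25a20, Smad6, Tgfb1, Timp1 and Tnfaip3. Alternatives were DESeq2 1.42.0, RLE factors, library totals, no filter, only the groups compared, replicate number as a block and each library left out in turn, the libraries at 2 dyn/cm2 and of orpk cells after seeing the data.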

Additional observations from a re-analysis of the deposited data

Results flagged for a closer look

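In 8 genes, those with the largest differences between the changes of WT and orpk cells under the naming rule, the difference itself passed edgeR's quasi-likelihood test, and these are given as values. Each change is 30 dyn/cm2 over static on the log2 scale, and the difference is WT minus orpk. Several of these genes had few reads in WT cells.

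C1qtnf3, a secreted protein of the adiponectin family, changed by -1.03 ± 0.82 (SE) in WT and 4.80 ± 0.11 in orpk cells, a difference of -5.83 (edgeR adjusted p = 9.19e-05), with 18 reads over the sheared and 33 over the static WT libraries. Cdkl1, a kinase tied to cilia, had 2.52, 2.94 and 2.98 CPM at 30 dyn/cm2, against 43.0, 28.2 and 39.0 CPM in static cells in WT, and changed by -3.71 ± 0.15 in WT and 1.25 ± 0.66 in orpk cells, a difference of -4.95 (edgeR adjusted p = 1.33e-06). Acta1, skeletal muscle actin, changed by 0.05 ± 0.40 in WT and 4.52 ± 0.16 in orpk cells, a difference of -4.48 (edgeR adjusted p = 7.45e-10), and its WT libraries held under 1 CPM in both groups. Rassf6 had 5.81, 6.66 and 6.45 CPM at 30 dyn/cm2, against 27.2, 20.6 and 26.7 CPM in static cells in WT, and its changes of -1.98 ± 0.11 in WT and 2.25 ± 0.34 in orpk cells differed by -4.23 (edgeR adjusted p = 1.64e-13).

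Spon2, a matrix protein, changed by 1.77 ± 0.37 in WT and -4.02 ± 0.12 in orpk cells, a difference of 5.79 (edgeR adjusted p = 1.82e-16). Ccl5, a chemokine for T cells, held 6.53, 7.77 and 8.99 CPM at 30 dyn/cm2, against 7.64, 7.14 and 6.72 CPM in static cells in WT, where it did not pass (0.12 ± 0.19, edgeR adjusted p = 0.593), and 1.27, 1.00 and 0.62 CPM at 30 dyn/cm2, against 28.3, 31.1 and 28.2 CPM in static orpk cells, a difference of 5.03 (edgeR adjusted p = 2.12e-10). Dclk1 and Pdgfra held 599.7, 602 and 656 and 1775, 1756 and 1793 CPM in static orpk cells and under 1.5 CPM in every WT library compared, and their differences were 4.58 and 4.27 (edgeR adjusted p = 1.57e-06 and 7.37e-10). In the 8 genes the difference passed in each of 17 alternatives with its sign kept.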

How the results depend on the processing

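Between 30 dyn/cm2 and static in WT cells, 4455 genes were higher and 4276 lower, and with the 1.5-fold test as the call rule 686 and 1148. With library totals as the scaling 5389 were higher and 3485 lower, 60.7% of calls higher against 51.0% with TMM, and that scaling moved the median log2 fold change of all genes by 0.09. RLE factors gave 4271 and 4426, DESeq2 4080 and 4270, no filter 4538 and 4317 and the 2 compared groups alone 4440 and 4413. DESeq2 called 387 genes higher in the 1.5-fold test where edgeR called 686, and 98 genes lower at 30 than at 2 dyn/cm2 where edgeR called 167; the cause was not tested. Leaving out each library in turn gave 4214 to 4304 higher and 4069 to 4139 lower, and 561 to 646 and 1049 to 1117 by the 1.5-fold test. For 30 against 2 dyn/cm2 the ranges were 1687 to 2117 higher and 1851 to 2253 lower, and for the difference from orpk cells 3326 to 3404 above and 3856 to 3918 below 0. With replicate number as a block 4447 were higher and 4275 lower. The numbers do not pair the libraries: deviations of same-numbered libraries correlated by 0.0157, 0.0363 and -0.0179 over 10628 genes. Of 298 called genes under the naming rule 268 kept call and sign in each of the 12 alternatives that gave them an adjusted p. An alternative that did not test a gene, or gave it no adjusted p, was counted as keeping its call. The other 30 lost the call in some, among those in the text Eng, Ift88, Nr1h3, Pecam1, Polr1c, Cldn2 and Col4a3. Col4a3 lost it with RLE factors and with DESeq2, Cldn2 with library totals, and both without some of the libraries left out. No sign turned. All 10 genes of 30 against 2 dyn/cm2 kept call and sign in 14 alternatives. Depth limits genes with few reads, such as Adm, Wt1, Cyp1a1 and Col15a1.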
